A study of Tetradesmus deserticola with 10 samples.

Results

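Transcripts of strain Sni-2 of a green alga from the desert, Tetradesmus deserticola, which the submitters' labels call Acutodesmus deserticola, were compared between cells that had passed through complete dryness and cells that had not. The block after dryness held the 4 libraries of the stages Dry and Rehydrated, and the block before it held the 6 libraries of the stages Hydrated, Early and Late. Together these were all 10 libraries of the series, at 2 libraries per stage, and all 20783 assembled genes were examined. Dry cells were flattened spots collected about 24 h after the start, which had stayed in the drying chamber for 11 additional h, and Rehydrated cells were collected 1 h after rewetting. Hydrated cells were 40 µL drops of culture taken at once, Early cells had lost 25% of the drop's volume by 2.5 h, and Late cells had lost 60% by 7.5 h. All cells came from 6-week cultures of the same strain. Elapsed time and passage through dryness cannot be told apart, since both stages after dryness were also the last to be collected and none of the groups was of drops kept wet for the same time.

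Some green algae of desert soil crusts survive the loss of nearly all cell water in their vegetative state and resume photosynthesis after rewetting. Vegetative desiccation tolerance in algae and plants is known for the accumulation of protective proteins and sugars, for the dismantling or protection of the photosynthetic apparatus, and for repair on rewetting. RNA in a dry cell reflects synthesis and decay up to the loss of water, and RNA soon after rewetting reflects what outlasted the dry state as well as what was newly made. The deposited tables give no names or sequences for the assembled genes, so the genes below carry their assembly identifiers, no function is assigned, and the identity of the cells was not checked against marker genes.

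The separation of the blocks was the main axis of the data. On the first principal component, which held 56.5% of the variance of log2 CPM, the libraries after dryness lay between 57.39 and 118.17 and those before it between -72.9 and -45.53. CPM is a gene's count relative to the scaled total of its library. Dry and Rehydrated libraries correlated with each other across genes at 0.802 to 0.834, and libraries of different stages before dryness at 0.83 to 0.915. Pairs that crossed the blocks lay at 0.572 to 0.701, with a median of 0.621 over 24 pairs. These correlations describe 9856 genes with enough counts for a test, and genes are not independent replicates.

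The block after dryness was nevertheless made of the most unlike stages in how many genes they contained. When every library was thinned to 644686 counts, Dry libraries had 10448 and 10629 genes with at least 1 count, the fewest of all libraries. Rehydrated replicate 1 had 19459, the most of any library, and Rehydrated replicate 2 had 16525. The libraries before dryness ranged from 12288 to 17711, inside the range of the block after dryness. The block means were therefore 14265 ± 4470 genes after dryness (SD, n = 4 libraries) and 14243 ± 2120 before it (SD, n = 6 libraries). An exact two-sided permutation test gave p = 1.0, where 0.00952 is the smallest value that 210 splits of single libraries allow. The splits treat libraries as exchangeable, although a block is made of whole stages with 2 libraries each. The p-values of this test, here and below, therefore cannot decide whether the blocks differ. The 1000 most abundant genes held 86.5% ± 9.64 of counts after dryness (SD, n = 4) and 85.2% ± 4.45 before it (SD, n = 6; exact permutation p = 0.771), and the Dry libraries were the highest and Rehydrated replicate 1 the lowest. No difference between blocks passed in 5 such library measures (adjusted p = 1.0 for each, lowest raw exact permutation p = 0.324).

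**Figure D1:**
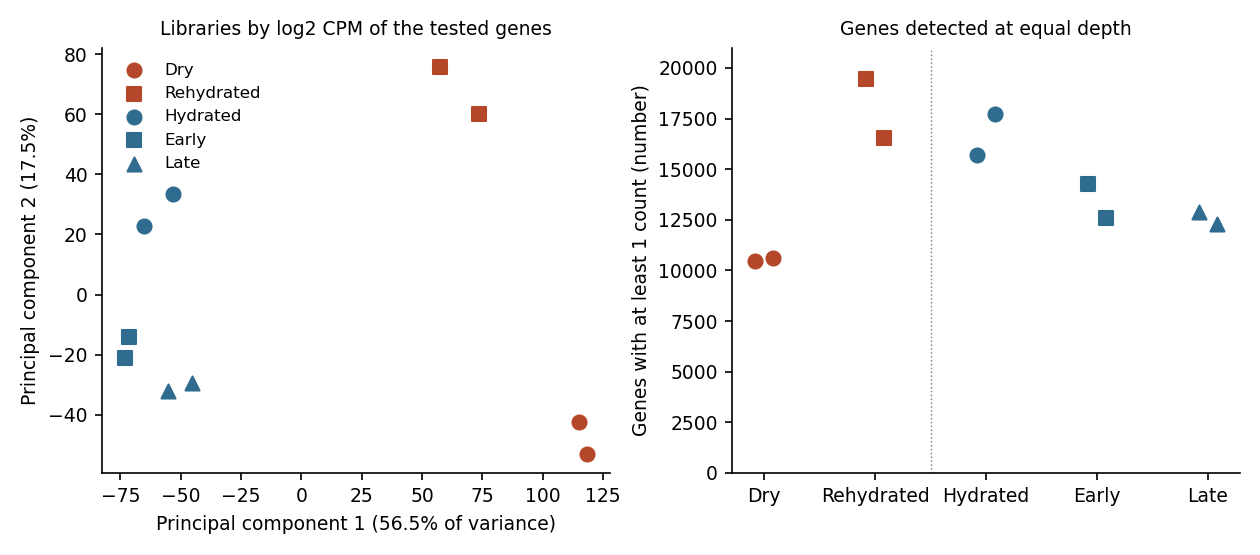
The left panel plots each library by its first and second principal component (arbitrary units) of log2 CPM, and the right panel plots the number of genes with at least 1 count at an equal depth of 644686 counts, with stages after dryness left of the dotted line. The first component separates the 4 libraries after dryness from the 6 before it, while detected genes of Dry and Rehydrated libraries lie on opposite sides of most libraries before dryness.

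The lowest and the highest scaling factors also belonged to stages after dryness. TMM assumes that most genes do not change and rescales each library total to fit. Its factors were 0.471 and 0.403 in the Dry libraries and 1.99 and 1.24 in the Rehydrated libraries, against 0.759 to 1.58 before dryness. Relative to plain library totals, TMM thus raised every gene in Dry and lowered every gene in Rehydrated. A gene has to clear all libraries of the other block to separate, so TMM and library totals each make one of the stages after dryness the harder one to clear. Library totals over all genes ran from 644705 to 1594106 counts after dryness and from 1162221 to 1917825 before it, with the Rehydrated libraries the shallowest. An abundance of 3 counts corresponded to 2.52 to 4.70 CPM after dryness and 1.07 to 2.40 CPM before it under TMM. All values are shares of the RNA recovered from a library, so a change in total RNA per cell cannot be seen in them.

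Under each of 4 scalings taken singly, a narrow majority of the tested genes was called between the blocks, 52.2% to 53.6%. TMM itself assumes that most genes do not change. In a fit with a term per stage, edgeR's quasi-likelihood test of the mean of the 2 stages after dryness against the mean of the 3 before it called 5227 of 9856 genes, 53.0%, at an adjusted p under 0.05. Of these, 2424 were higher after dryness (24.6% of the genes tested) and 2803 were lower (28.4%). Under library totals 1655 were higher (16.8%) and 3625 lower (36.8%), and the median log2 fold change over all tested genes was -0.64 in place of -0.21. Under TMM, library totals, RLE and upper-quartile scaling together, 1655 genes were called higher and 2559 lower under every one. A fit with a single term for the block left the differences between stages of the same block in the estimate of the spread. It called 2102 genes higher and 2054 lower. Neither the genes called under every scaling nor those called with the single block term were a majority.

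The stricter question was which genes kept every library of one block clear of every library of the other. Under TMM, 1860 assembled genes were higher in all 4 libraries after dryness than in any of the 6 before it, 8.95% of all assembled genes, and 1722 were lower, 8.29%. Under library totals the numbers were 818 higher, 3.94%, and 1385 lower, 6.66%. Both scalings were met by 705 higher genes (3.39%) and 1035 lower genes (4.98%), and no gene separated in opposite directions under the 2 scalings. RLE and upper-quartile scaling together removed none of the 705 higher genes and left 1008 of the lower genes. Of the 1155 higher genes that separated under TMM and not under library totals, 1058 separated under library totals once the Dry libraries were left out, and 485 once the Hydrated libraries were left out. Of the 687 such lower genes, 298 did so without the Late libraries. All 687 did so without the Rehydrated libraries, which has to be the case because the TMM factors of both Dry libraries lie below every factor before dryness.

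**Figure D2:**
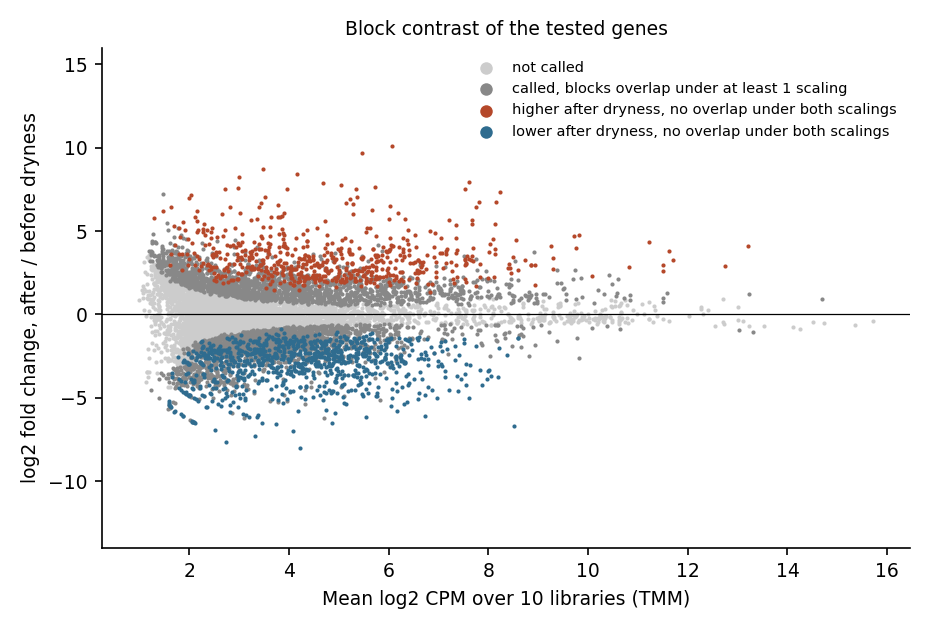
Each point is 1 of the 9856 tested genes, by its mean log2 CPM over 10 libraries and its log2 fold change after over before dryness (TMM). Coloured genes separated the blocks under both TMM and library totals, 613 higher and 917 lower; they lie at the outer edge of the cloud on either side of 0.

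The genes that separated under both scalings were more abundant than the typical gene. Of the 705 higher and 1035 lower genes, 613 and 917 had enough counts for the test, which is 6.22% and 9.30% of the tested genes; with TMM as the sole criterion the shares were 12.6% and 15.9%, and with library totals as the sole criterion 7.24% and 12.4%. All 613 and 917 were called in the edgeR fit in the same direction. Their fitted log2 fold changes had medians of 3.13 and -2.69, against -0.21 over all tested genes. Separation selects for large changes in the same libraries that the fit uses, so the calls and the medians are a description and no separate support. Their median of mean counts per library was 42.9 for the higher and 40.9 for the lower genes, against 14.6 for all tested genes. When the tested genes were divided into 4 classes of nearly equal size by mean count, 2.27% were higher and 2.56% lower in the class with the fewest counts, and 13.4% and 19.7% in the class with the most. The mean count includes the change between blocks, and the part of depth in these shares was not tested.

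The separating genes took up a large part of the RNA after dryness. The 705 higher genes held 35.3% and 33.4% of the counts in the Dry libraries and 22.1% and 22.8% in the Rehydrated libraries, against 2.18% to 4.34% in the 6 libraries before dryness. The 1035 lower genes held 0.545% and 0.471% of counts in Dry and 1.46% and 1.30% in Rehydrated, against 4.63% to 10.9% before dryness. That neither range overlapped follows from the choice of the genes, and no test was made of these shares.

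The size of the gap fell off steeply and differed between the directions. The gap was taken as the ratio between the nearest libraries of the 2 blocks, with any count below 3 set to 3, and as the smaller value of the 2 scalings. With that floor 628 higher and 795 lower genes still separated. The gap was at least 2-fold (1 on the log2 scale) for 230 higher and 220 lower genes, at least 4-fold (2 on the log2 scale) for 74 and 53, and at least 8-fold (3 on the log2 scale) for 34 and 14. At a gap of at least 16-fold (4 on the log2 scale), 15 higher and 2 lower genes remained. The floor of 3 counts limits how far a falling gene can be followed, and it lies at a higher CPM after dryness than before it under TMM. Under TMM it could therefore end the separation of lower genes only. All 1860 higher genes kept it, against 1379 of 1722 lower genes. The numbers left with the floor thus differ between the directions in part by construction. With the tested genes alone, the median gap was 1.65-fold for higher and 1.35-fold for lower genes.

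**Figure D3:**
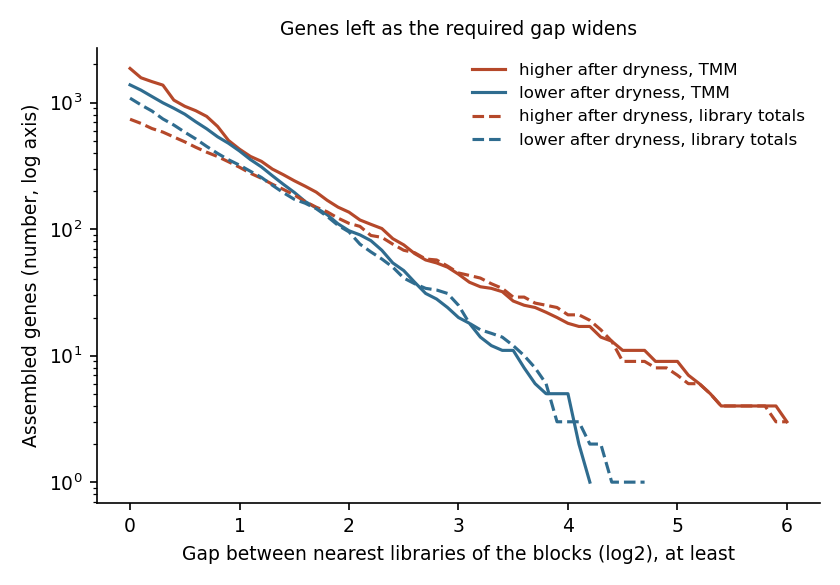
The curves give the number of assembled genes (log axis) whose blocks were separated by at least the gap on the x axis (log2 ratio between nearest libraries, counts below 3 set to 3), by direction and scaling. At a gap of 3, more higher genes than lower genes remain under both scalings: 44 against 20 with TMM and 45 against 25 with library totals.

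Few genes were present on one side alone. In all, 2 genes had at least 3 counts in each library after dryness and 0 in the 6 before it, with 20 and 30 counts in total. In the other direction 16 genes had 0 counts in the 4 libraries after dryness and at least 3 in each library before it, with 28 to 201 counts in total and a median of 63.5. The block after dryness held 4518663 counts in all and the block before it 9488851. Presence was required in 4 libraries for the first kind of gene and in 6 for the second. The part of depth and of library number in these counts of genes was not tested. Without the minimum of 3, the numbers were 7 and 95.

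Among the 284 separating higher genes with at least 50 mean counts, the widest gap belonged to TRINITY_DN171044_c0_g1, which was nearly silent before dryness and abundant after it. It had 9350 and 8600 CPM in the Dry libraries and 1430 and 1500 CPM in the Rehydrated libraries. Before dryness its CPM had a lowest value of 1.07, a median of 3.27 and a highest value of 9.18, the last in a Late library. The lowest library after dryness thus stood 155-fold above the highest before it under TMM and 267-fold under library totals. Its counts were 1502 to 6359 after dryness and 3 to 13 before it, and the log2 fold change between blocks was 10.08 (SE 0.404, adjusted p = 9e-14). Within the block, it was lower in Rehydrated than in Dry under TMM (log2 fold change -2.62, SE 0.473, adjusted p = 0.000364), while under library totals the difference was -0.74 and did not pass (adjusted p = 0.0857).

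TRINITY_DN169171_c1_g1 had the second widest gap. It had 3510 and 3360 CPM in Dry and 796 and 1520 CPM in Rehydrated, against a lowest value of 0, a median of 1.83 and a highest value of 8.38 CPM before dryness. The gap was 94.9-fold under TMM and 102-fold under library totals, and the highest library before dryness was Hydrated replicate 2 with 18 counts. Between blocks the log2 fold change came to 9.67 (SE 0.52, adjusted p = 2.24e-12); it was 10.32 without Hydrated replicate 2, 10.86 without Early replicate 2 and 8.73 with limma on the deposited signal (log2, pseudocount 1). Rehydrated vs Dry did not pass for this gene under TMM (log2 fold change -1.57, adjusted p = 0.0587) or under library totals (0.20, adjusted p = 0.733). The counts of both genes were whole numbers in all 10 libraries, to within 1e-06.

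Among the 406 separating lower genes with at least 50 mean counts, the widest gap was that of TRINITY_DN179578_c3_g1. It had 26.5 and 65.9 CPM in Dry and 15.9 and 6.99 CPM in Rehydrated. Before dryness its lowest value was 1130 CPM, its median 2130 and its highest 5670. All 4 libraries after dryness therefore lay 17.2-fold or more below all 6 before it under TMM, and 27.1-fold or more with library totals. The gene was not steady before dryness, where Hydrated averaged 2130 ± 1110 CPM, Early 5370 ± 413 CPM and Late 1170 ± 49.5 CPM (SD, n = 2 each), although neither Early vs Hydrated nor Late vs Hydrated passed the edgeR test under TMM (adjusted p = 0.127 and 0.274; under library totals Late was lower, adjusted p = 0.0238). Between the blocks the log2 fold change reached -6.67 (SE 0.447, adjusted p = 5.48e-11). Within the block after dryness, Rehydrated was lower than Dry under TMM (-1.98, adjusted p = 0.0206) and not under library totals (-0.01, adjusted p = 0.994). In 8 libraries its count was not a whole number, which arises where reads are divided among assembled genes.

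TRINITY_DN185502_c14_g1 was the second of the falling genes and was closer to a single step. It had 1.47 and 12.5 CPM in Dry, from 1 and 8 counts, and 5.04 and 7.99 CPM in Rehydrated, from 6 and 8 counts. Its lowest value before dryness was 211 CPM, with a median of 286 and a highest value of 477. The gap was 16.9-fold under TMM and 17.8-fold under library totals, and the log2 fold change was -5.47 (SE 0.396, adjusted p = 1.51e-10). Without Dry replicate 2, the highest library after dryness, it was -6.59, and -6.08 with limma on the deposited signal (log2, pseudocount 0.1). Under TMM no difference between Rehydrated and Dry passed (adjusted p = 0.937), but under library totals Rehydrated was higher (log2 fold change 1.73, adjusted p = 0.0297).

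**Figure D4:**
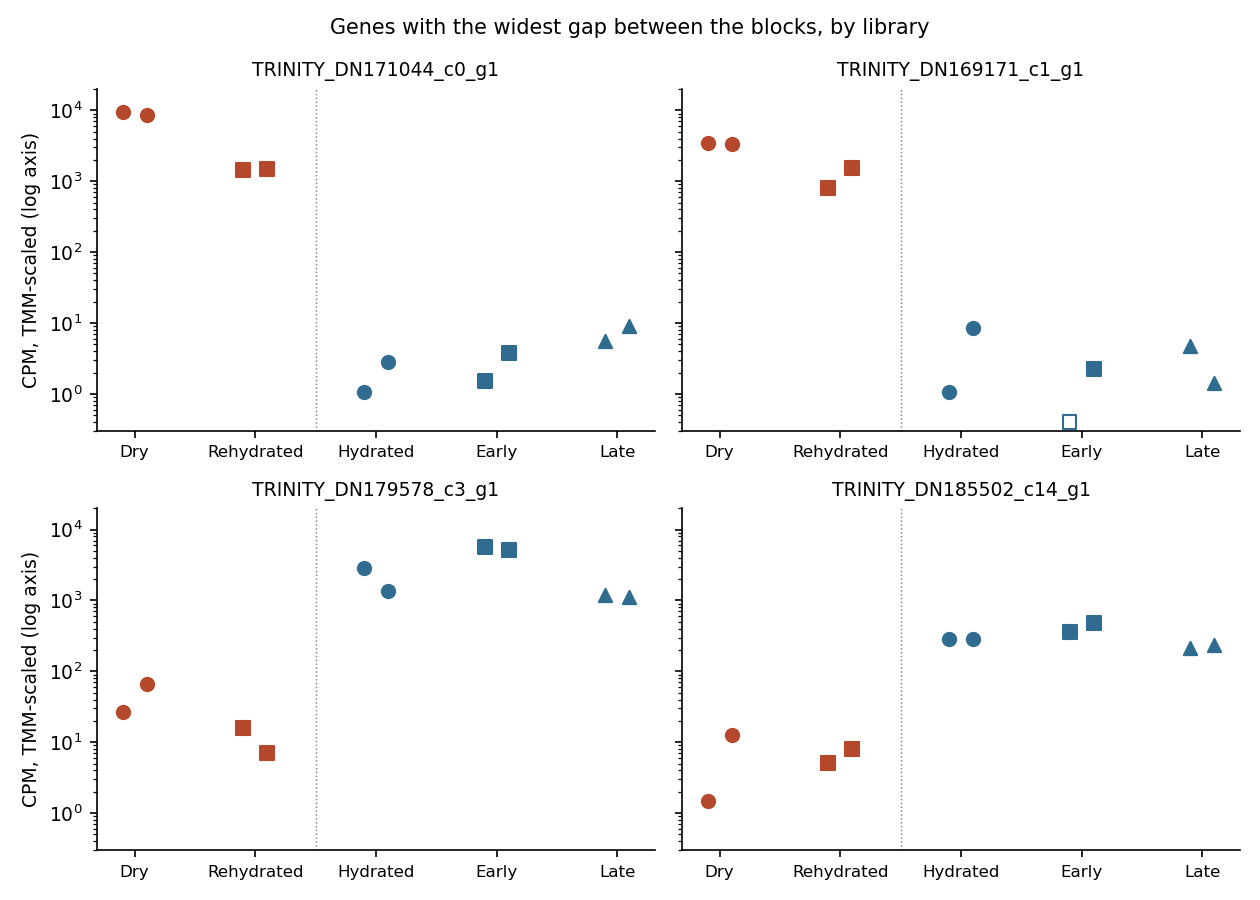
Each panel gives the TMM-scaled CPM (log axis) of 1 gene in all 10 libraries, with stages after dryness left of the dotted line; the open symbol marks a library with 0 counts, drawn at the bottom of the axis. In each panel all 4 libraries after dryness lie on one side of all 6 before it, with the nearest libraries 16.9-fold to 155-fold apart under TMM.

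The levels of the separating genes by stage are given as a description, since the genes were chosen for lying apart between Late and Dry in every library. Relative to each gene's own mean before dryness, the median log2 levels of the 613 higher genes under TMM were -0.11 at Hydrated, -0.15 at Early, 0.27 at Late, 3.72 at Dry and 2.29 at Rehydrated. Under library totals the medians were 0.33, -0.27, -0.05, 2.34 and 2.76 in the same order. The 917 lower genes had medians of -0.21, 0.22, 0.02, -1.92 and -2.16 under TMM, and of 0.22, 0.11, -0.30, -3.30 and -1.69 under library totals. Hydrated, Early and Late make up the mean that each level is set against, so their closeness to 0 and the step at Dry follow from the choice of genes. Which of Dry and Rehydrated lay farther from the block before dryness turned round with the scaling in both directions.

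**Figure D5:**
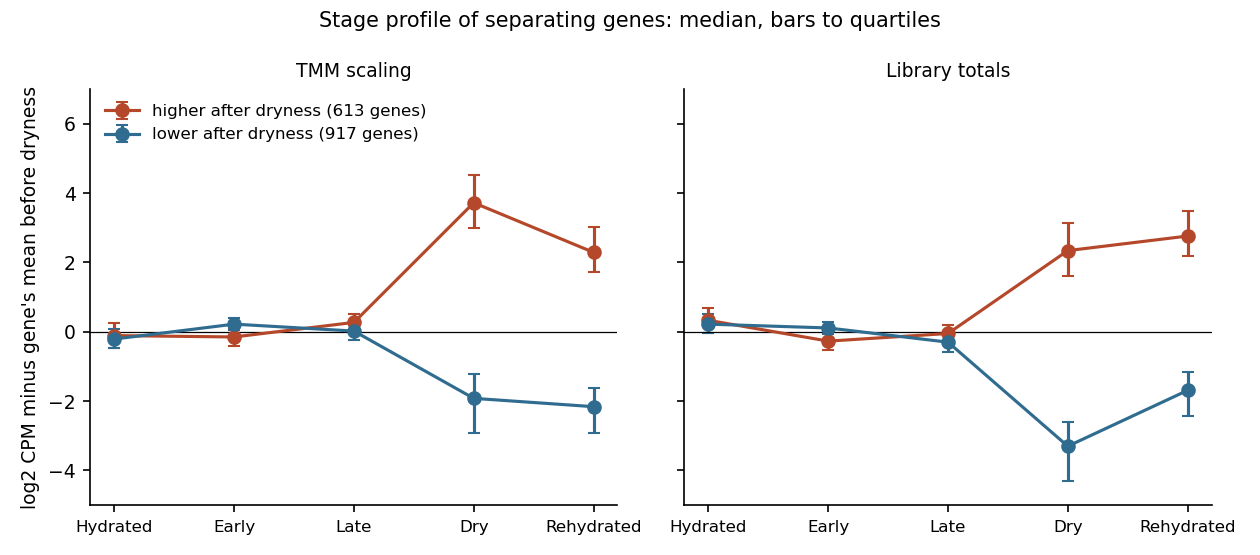
Points are medians and bars reach to the quartiles, over the 613 higher and 917 lower tested genes, of log2 CPM minus the gene's mean before dryness (counts below 3 set to 3), by stage. The step at Dry is fixed by the choice of genes; the order of Dry and Rehydrated differs between the panels.

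Differences among Hydrated, Early and Late were tested in the same fit, with an F-test that called 10.5% of all tested genes under TMM and 12.4% under library totals. Among the higher genes it called 93 of 613 (15.2%) and 113 (18.4%), and among the lower genes 138 of 917 (15.0%) and 115 (12.5%). Neither scaling called 468 of the higher and 743 of the lower genes. A gene with a wide spread before dryness is less likely to separate, so these counts are tied to the rule. The whole-series count rested on single libraries: in place of 1035 genes under TMM, the F-test called 547 without Hydrated replicate 1, 513 without Hydrated replicate 2 and 669 without Late replicate 2.

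Late vs Hydrated was tested for all genes and then read for the separating ones. Late vs Hydrated called 491 genes higher (4.98%) and 627 lower (6.36%) under TMM, and 117 (1.19%) and 1347 (13.7%) under library totals. Of the 613 genes higher after dryness, 25 were higher (4.08%) and 27 lower (4.40%) in Late than in Hydrated under both scalings. Of the 917 genes lower after dryness, 6 were higher (0.654%) and 65 lower (7.09%) under both. Over all tested genes, 117 (1.19%) were higher and 627 (6.36%) lower under both, so the shares of the lower genes were near those of all genes. These comparisons share the Late and Hydrated libraries with the comparison of blocks.

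TRINITY_DN187552_c0_g1 was 1 of 77 separating genes with at least 50 mean counts that were called higher in Late than in Hydrated without overlap. It had 0 counts in both Hydrated libraries, 4 and 7 in Early, and 10 and 22 in Late. It reached 812 and 859 CPM in Dry and 133 and 192 in Rehydrated, against a highest value of 15.5 CPM before dryness. With 3 counts per library as the floor, Late was at least 9.53-fold higher than Hydrated under TMM (adjusted p = 5.72e-05). The same bound was 5.40-fold when scaled by library totals. TRINITY_DN153736_c1_g2 was also higher in Late than in Hydrated. Before dryness, Hydrated averaged 2.01 ± 0.202 CPM, Early 10.6 ± 2.27 CPM and Late 50.6 ± 2.43 CPM (SD, n = 2 each). It then had 681 and 695 CPM in Dry and 128 and 188 CPM in Rehydrated. For Late vs Hydrated the log2 fold change reached 4.59 (SE 0.501, adjusted p = 2.82e-06), or 3.87 under library totals. Early vs Hydrated passed under TMM (2.36, adjusted p = 0.0115) and not under library totals (1.88, adjusted p = 0.0539), and Late vs Early was not tested. Both genes were nearest to the other block in Late, and both still separated, by 8.53-fold and 2.46-fold under TMM. The count of TRINITY_DN153736_c1_g2 was not whole in 7 libraries.

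Other genes fell during drying and were then higher after it. TRINITY_DN175670_c2_g2 had 5 and 8 counts in Hydrated, 7 and 6 in Early and 0 in both Late libraries. It had 256 and 285 CPM in Dry and 83.9 and 157 CPM in Rehydrated, against at most 4.49 CPM before dryness, a gap of 18.7-fold under TMM. Its fall in Late rests on few counts, at least 1.22-fold under TMM and 2.02-fold under library totals. The call (adjusted p = 0.028) was lost without Hydrated replicate 2, Late replicate 1 or Late replicate 2, at adjusted p = 0.127, 0.125 and 0.164. In 8 libraries its count was not a whole number. TRINITY_DN171457_c3_g3 had 1 and 0 counts in Late, against 25 and 14 counts in Hydrated, for a ratio of 21.0 of Hydrated over Late under TMM (exact 95% Poisson interval 3.56 to 852) and of 36.2 under library totals (6.13 to 1470). Its Late vs Hydrated call (adjusted p = 0.024) was lost without Hydrated replicate 1, Late replicate 1 or Late replicate 2 (adjusted p = 0.0891, 0.0733 and 0.185) and with limma on the deposited signal at a pseudocount of 0.1 (adjusted p = 0.143). After dryness it had 110 and 51.7 CPM in Dry and 271 and 102 CPM in Rehydrated, against a highest value of 8.95 CPM before dryness.

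Within the block after dryness, the effect of 1 h of rewetting on the separating genes depended on the scaling. Under TMM, Rehydrated vs Dry called 713 of all tested genes higher (7.23%) and 1330 lower (13.5%), and under library totals 5870 (59.6%) and 221 (2.24%), with median log2 fold changes over all tested genes of 0.45 and 2.28. Among the 613 genes higher after dryness, 1 was higher and 346 were lower in Rehydrated under TMM, while under library totals 120 were higher and 49 lower. The calls that held under both scalings were 1 higher (0.163%) and 49 lower (7.99%). Over all tested genes, 713 (7.23%) were higher and 221 (2.24%) lower under both. Among the 917 genes lower after dryness, 62 were higher and 78 lower in Rehydrated under TMM, and 475 and 10 under library totals. Called under both were 62 (6.76%) and 10 (1.09%), shares near or below those of all tested genes. Without Dry replicate 1 the TMM counts over all tested genes were 281 higher and 856 lower, and without Dry replicate 2 361 were higher.

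TRINITY_DN162038_c1_g1, one of the 49, had the second largest fall in Rehydrated vs Dry and the largest among genes higher after dryness that were eligible to be named. It had 226 and 529 CPM in Rehydrated and 5500 and 7100 CPM in Dry, against a lowest value of 14.0, a median of 35.7 and a highest value of 77.7 CPM before dryness. The Rehydrated vs Dry log2 fold change was -4.06 (SE 0.554, adjusted p = 4.02e-05) under TMM and -2.30 under library totals (adjusted p = 0.000373), and -4.80 without Rehydrated replicate 2. Even so, its lowest Rehydrated library lay 2.91-fold above the highest library before dryness. None of its 10 counts was a whole number.

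Among the lower genes, TRINITY_DN173691_c7_g2 showed a partial return. It had 37 and 25 counts in Rehydrated, 1 and 0 in Dry, and 122 to 252 in the libraries before dryness. In CPM the Rehydrated libraries stood at 31.1 and 25.0 against a lowest value of 56.8 before dryness. The ratio of Rehydrated over Dry was 37.3 under TMM (exact 95% Poisson interval 6.44 to 1500) and 133 under library totals (23.1 to 5360), and the call held in the edgeR test (adjusted p = 0.000102). The fitted log2 fold change of 5.06 was 8.44 without Dry replicate 1, where the remaining Dry library had 0 counts, and 4.27 without Dry replicate 2. TRINITY_DN149146_c0_g1 likewise had 13 and 8 counts in Rehydrated and 0 in both Dry libraries. Against a floor of 3 counts per library, Rehydrated was at least 2.07-fold higher than Dry when scaled by TMM and at least 7.95-fold by library totals, with an adjusted p of 0.00356 under TMM. Its lowest value before dryness was 38.6 CPM, and 7 libraries had a count that was not whole. TRINITY_DN182174_c5_g23 went the other way, with 0 and 1 counts in Rehydrated and 14 and 5 in Dry, against at least 42 counts in each library before dryness. The ratio of Dry over Rehydrated was 31.6 under TMM (exact 95% Poisson interval 5.03 to 1310) and 8.82 under library totals (1.4 to 367). This call (adjusted p = 0.00138) was lost without Dry replicate 1, at adjusted p = 0.0597, and in 6 libraries its count was not whole.

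Many genes were called between the blocks although some of their libraries overlapped. Under TMM this was so for 1196 of the 2424 genes called higher and 1258 of the 2803 called lower. In 835 and 859 of them, leaving out a single library was enough to separate the blocks. Among higher genes that library was most often Rehydrated replicate 1, in 251 genes, or Dry replicate 1, in 206, and before dryness it was most often Hydrated replicate 2, in 166. Among lower genes it was most often Rehydrated replicate 1, in 299, or Rehydrated replicate 2, in 235. A gene could count for more than 1 library. Rehydrated replicate 1 was also the library with the fewest counts and the most detected genes; the part this plays was not tested.

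The separation was compared between the libraries numbered 1 and those numbered 2, each number giving 2 libraries after dryness and 3 before it. Under TMM, 2149 tested genes were higher without overlap in the libraries numbered 1 and 2224 in those numbered 2. They shared 1491 genes, which is 69.4% of the first set and 67.0% of the second. The lower genes numbered 2571 and 2705, with 1830 shared, 71.2% and 67.7%. For comparison, 22.6% of all tested genes were higher and 27.4% lower without overlap in the libraries numbered 2. Of the genes that separated in the libraries numbered 1, 10 of the higher and 12 of the lower separated the opposite way in those numbered 2. Under library totals 824 higher genes were shared, 61.8% and 78.3% of the sets, and 1670 lower genes, 73.5% and 59.7%.

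Separating genes were set beside all tested genes in relative length and in counts that were not whole, which the rule did not use. Relative gene length was taken as count divided by deposited signal, and within each library set to 1 for the median of genes with at least 10 counts there. It had a median of 0.912 in the higher genes (606 of 613 with a value), 0.855 in the lower genes (917 with a value) and 0.955 in all tested genes (9469 with a value), with quartiles of 0.529 to 1.37, 0.585 to 1.27 and 0.631 to 1.37. Counts that were not whole in at least 1 library, which arise where reads are divided among assembled genes, occurred in 26.3% of the higher genes, 16.4% of the lower genes and 15.0% of all tested genes. Both the higher and the lower genes had more counts than the typical gene, with medians of mean counts of 42.9 and 40.9 against 14.6. Mean counts come from the same values that the rule used, so they are no separate feature. The part of abundance in the shares of counts that were not whole was not tested.

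Identifiers were grouped by the number after DN, whatever the number after c, and genes of a group can be copies, variants or fragments of related transcripts. The tested genes fell into 7994 such groups, of which 1455 held 2 or more tested genes. Over all 9856 tested genes, 3317 shared a group with another tested gene, as did 294 of the 613 higher and 340 of the 917 lower. At least 2 separating genes occurred in 137 groups. These were all higher after dryness in 64 groups, all lower in 54 and of both directions in 19. Whether directions within a group go together more often than over all tested genes was not tested. The most separating genes in a single group were 7 higher and 14 lower. Members of a group cannot be taken as independent observations, and the counts of separating genes include them singly.

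The deposited signal also allowed the weighted length of a gene to be compared between blocks, which can move when the mix of its isoforms changes. Of 1137 genes with at least 20 counts in every library, 13 were longer and 13 shorter after dryness without overlap of any library and by at least 0.2 on the log2 scale, 1.14% each. No test was made of these values, and whether the mix of isoforms changed was not examined.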

How the data were processed

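RNA was sequenced from 10 libraries in 5 stages, after removal of ribosomal RNA per the labels' protocols. For 20783 assembled genes with Trinity-style identifiers, the authors deposited raw expected counts per library, together with an expression signal scaled by TMM. The tools named, per the submitters' processing notes, are RSEM 1.2.28, Bowtie2 2.2, Trimmomatic 0.35, CASAVA 1.4 and DESeq2; roles and order: not given in the sources used here. Whether the deposited signal was TPM or FPKM before TMM, how the assembly was built, and how the genes that the column names mark as plant were selected, is not given either. No label ties the libraries of a stage to separate cultures, so the spread that p-values are measured against is between libraries and could be technical.

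Before fitting, the expected counts were rounded. Genes were filtered with filterByExpr at a minimum count of 10, which left 9856 genes with 98.3% of counts; library totals in all scalings are sums over these genes. edgeR 4.0.16 (R 4.3.3) fitted 1 quasi-likelihood model with a term per stage and TMM factors, leaving 5 residual degrees of freedom and a coefficient of variation of 28.6% between libraries. Benjamini-Hochberg adjustment ran over all tested genes within each contrast. The SE of a log2 fold change was worked back from the test, as its absolute value divided by the square root of the F statistic. Separation used strict inequality between all libraries of the blocks. Intervals and the floor of 3 counts per library cover counting error only. Named genes were, per comparison and direction, the 2 with the widest gap (for the blocks) or largest fold change (within blocks) among genes with at least 50 mean counts, an adjusted p under 0.05, no overlap between the groups compared and separation under both scalings. The comparison, rules and lists were chosen with earlier results of these data known. Gene lists of pathways could not be matched to identifiers and were not tested. Alternatives were other scalings, no filter, DESeq2 1.42.0, limma 3.58.1 on log2 of the deposited signal, a replicate block, and leaving out each library or stage.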

Additional observations from a re-analysis of the deposited data

How the results depend on the processing

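The counts of genes called between the blocks stayed within 1.5 times of 2424 higher and 2803 lower under every alternative run, from 1655 to 3039 higher and from 2054 to 3625 lower; leaving out 1 library gave 1953 to 2442 and 2462 to 2794. Deviations of same-numbered libraries correlated at -0.0815 to 0.149 over 10 pairs of stages, with a median of 0.0797. With 2 libraries per stage, these values cannot decide whether the numbers in the titles pair the libraries. A replicate block gave 2425 higher and 2845 lower genes.

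The number of separating genes depended more on the choices. Higher genes under TMM numbered 1860, but 818 with library totals and 1239 among the tested genes. A gap of at least 2-fold left 428 higher and 414 lower. The libraries numbered 1 alone gave 5149 and 3311, and those numbered 2 alone 4520 and 3571, where fewer libraries have to be cleared. Without the Dry stage there were 5306 and 2603, and without the Rehydrated stage 3515 and 3706. Leaving out 1 library gave 1911 (Late replicate 1) to 2939 (Dry replicate 1) higher and 1777 (Early replicate 1) to 2407 (Rehydrated replicate 1) lower genes. Alternatives for separation under both scalings were chosen after seeing the data. The 705 higher genes became 1553 without the Hydrated stage and 4853 without the Dry stage, and the 1035 lower genes became 1678 without Late, 1561 without Dry and 3706 without Rehydrated. Leaving out 1 library gave 728 to 1100 higher genes (1100 without Hydrated replicate 2 and 1074 without Dry replicate 2) and 1056 to 2086 lower genes (2086 without Rehydrated replicate 1). Each run without a library or a stage had fewer libraries to clear, and each gave more separating genes than all libraries did. These runs therefore do not measure how firm the counts are.

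Rehydrated vs Dry gave 5870 higher and 221 lower genes with library totals, and 281 to 790 higher and 856 to 1347 lower when 1 library was left out. The F-test before dryness called 513 to 1327 genes when 1 library was left out. The other differences of library measures stayed short of the threshold. Leaving out 1 library moved the difference in detected genes between -1710 and 1290, and the shares of the 10, 100 and 1000 most abundant genes by -8.87 to -2.49, -4.41 to 3.32 and -1.40 to 5.50 percentage points. The level that 3 counts stand for was highest in Dry under TMM, at 4.41 and 4.70 CPM, and in Rehydrated under library totals, at 5.00 and 3.72 CPM.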
